A study of Mus musculus with 2 samples.

Results

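Small nucleolar RNAs, the related Cajal body RNAs and 2 RNAs of ribonucleoprotein enzymes, Terc and Rpph1, were followed in mouse liver with and without Iah1, an esterase gene. They were chosen by name: every gene whose probe sets carry exactly 1 platform symbol starting with Snora, Snord or Scarna, plus Terc, Rmrp and Rpph1. This gave 80 RNA genes of the 22180 genes on the array with a single symbol. They comprise 27 box H/ACA RNAs (26 Snora and Terc), 47 box C/D RNAs (Snord), 5 Cajal body RNAs (Scarna) and Rpph1. Rmrp has no value here, because both of its probe sets also name a second gene.

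The study holds 2 Affymetrix whole-transcript arrays of liver RNA, 1 from Iah1-WT mice and 1 from mice with a whole-body Iah1 knockout (Iah1-KO). All animals were male, ate standard chow until 6 weeks of age and then a high-fat diet for 12 weeks, and went 4 hours without food before the liver was taken. Both groups therefore share the diet and differ by genotype, and no strain is named in the sources used here. Each array carried the pooled RNA of 3 mice and neither was repeated, which leaves each value without a replicate error and the genotypes without a test. Higher and lower describe these 2 arrays.

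Box C/D and box H/ACA RNAs are short guide RNAs that base-pair with ribosomal RNA and place chemical marks on it. Box C/D RNAs direct methylation of ribose by fibrillarin, and box H/ACA RNAs direct the conversion of uridine to pseudouridine by dyskerin. A few act instead in cutting the ribosomal RNA precursor. Cajal body RNAs carry the same boxes and direct these marks on spliceosomal RNAs. Terc, the template RNA of telomerase, ends in an H/ACA domain and binds the same core proteins as the Snora RNAs. Rpph1 is the RNA of RNase P, which trims the leader of transfer RNA precursors. In mammals most small nucleolar RNAs are cut from introns of host genes, while Terc, Rpph1 and a few others are made from promoters of their own.

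Values are RMA signals on a log2 scale, and a difference is Iah1-KO minus Iah1-WT on that scale. Signals of different probe sets are not compared as amounts of RNA. A signal is said to be near background where the higher of both arrays lay below 4.68, the median of that quantity over all genes, which is a filter and no detection limit. Near background lay 14 of the 80 RNAs: 4 of 27 box H/ACA, 9 of 47 box C/D and 1 of 5 Cajal body RNAs. A further 2, Snora2b and Snord88c, were above the filter in Iah1-WT and below it in Iah1-KO. Both arrays lay above it for the remaining 64. RNA was cleaned on silica columns per the labels' protocols, and such columns retain very short RNA poorly. A probe set that lies in an intron also reads unspliced host RNA, so a signal here need not be that of the mature small RNA.

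The arrays differed little over the whole series, and Iah1 itself checked the labels, at 8.59 in Iah1-WT and 3.90 in Iah1-KO. The median difference was -0.01 over all 22180 genes and -0.03 over the 10643 genes whose mean signal reached the filter. Hepatocyte markers had a median difference of -0.01 (11 of 12 measured, all above the filter). Markers of other liver cells were lower in Iah1-KO. All 13 sinusoidal endothelial markers lay below 0 (median -0.54, summed linear signal 4056 in Iah1-WT and 2838 in Iah1-KO), as did all 14 Kupffer cell and macrophage markers (median -0.47, summed linear signal 2704 and 1919). None of the 9 measured T cell, B cell and neutrophil markers reached the filter. The part of cell composition in the differences below was not tested, and in a bulk sample fewer cells of a type and less RNA per cell cannot be told apart.

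As a group these RNAs had nearly the same signal in both arrays. The difference lay within 0.2 of 0 for 47 of the 80, or 58.8%, against 59.4% of all genes. The median difference was -0.06, and 53 of the 80 lay below 0 (66.2%, against 51.1% of all genes). Among the box H/ACA RNAs 20 of 27 lay below 0 (median -0.10), and among the box C/D RNAs 31 of 47 did (median -0.06). With a mean signal at the filter, the medians were -0.08 for box H/ACA and -0.02 for box C/D, beside -0.03 for all genes there. For the 5 Cajal body RNAs the median was 0.04, and the mean was of opposite sign at -0.02. The arrays hold no direct measure of error. The nearest value is 0.27, the pooled standard deviation between the differences of a gene's own probe sets. It comes from 604 genes with several probe sets whose higher array reached the filter. All genes with a mean signal at the 75th percentile or above had a standard deviation of only 0.18. The value of 0.27 is thus not the error of a bright RNA, and it concerns single probe sets. The RNAs of a class share the same arrays and are not replicates of a genotype, so this value gives no error for a class median. Within a class the differences had a standard deviation of 0.40 for box H/ACA and 0.26 for box C/D, more than the size of each median. The value of 0.27 also leaves out mice, labelling and hybridisation, so no class median is shown to come from genotype.

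**Figure D1:**
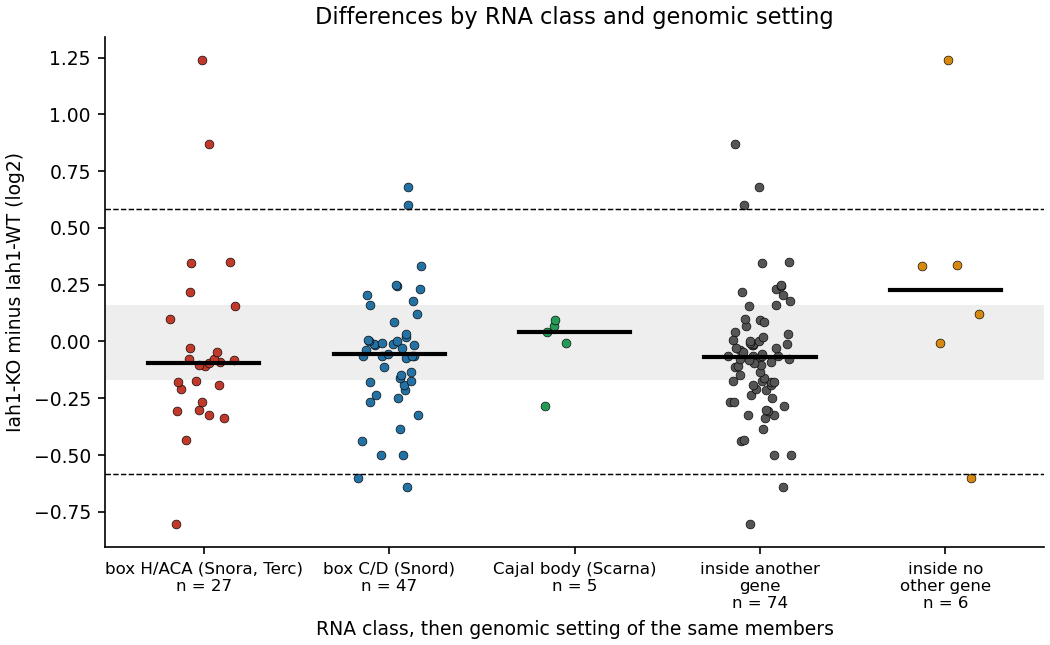
Differences between the Iah1-KO and Iah1-WT arrays (vertical axis, log2) for each RNA class and then for the same RNAs split by whether they lie inside another gene; points are single RNAs, thick bars are medians, dashed lines mark 1.5-fold and the grey band holds the middle of all genes (quartiles). Most points of all classes sit in or just below the grey band, and the class medians are -0.10, -0.06 and 0.04.

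A few RNAs stood out from the rest. At 1.5-fold or more (0.58 on the log2 scale), 4 of 80 were higher in Iah1-KO and 3 of 80 were lower. Over all genes the shares were 2.58% higher and 2.60% lower, which would be 2.06 and 2.08 of 80. The 4 higher RNAs were Terc, Snora62, Snord88a and Snord83b, and the 3 lower ones were Snora2b, Snord91a and Snord13. Among RNAs whose mean signal reached the filter, 3 of 65 were higher and 1 of 65 was lower, against 0.911% and 1.90% of all genes above the filter. The counts are too small to set the group apart from other genes, and dim genes passed the fold more often than bright ones. Past 1.5-fold were 4.12% (higher) and 3.24% (lower) of genes with a mean signal below the filter. In the middle band, from the filter to the 75th percentile of 6.52, the shares were 1.60% and 3.01%, and in the bright band above it 0.225% and 0.788%. At 2-fold, 1 of the 80 RNAs was higher and 0 were lower, against 0.189% and 0.284% of all genes.

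**Figure D2:**
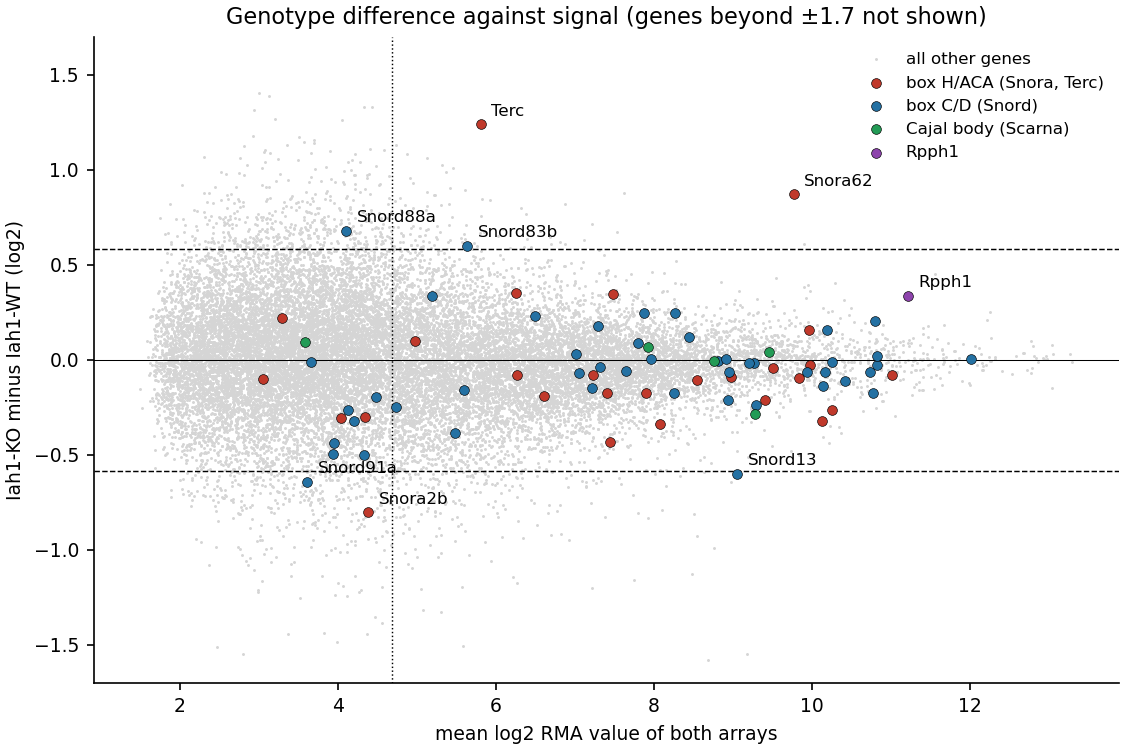
Difference between the Iah1-KO and Iah1-WT arrays (vertical axis, log2) against the mean log2 signal of both arrays (horizontal axis) for all genes in grey and the 80 RNAs coloured by class; dashed lines mark 1.5-fold and the dotted line the filter at 4.68. Terc at 1.24 and Snora62 at 0.87 lie above the cloud of genes of like signal, while Snord88a, Snord91a and Snora2b lie in the wide part of the cloud at low signal.

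Terc had the largest difference of the set. Its single probe set read 5.19 in Iah1-WT and 6.43 in Iah1-KO, a difference of 1.24 or 2.36-fold. Both values were above the filter, and Terc ranked first of 10643 genes by how far it was higher in Iah1-KO. Its partners did not share this difference. Tert, the reverse transcriptase subunit of telomerase, read 5.33 in Iah1-WT and 5.46 in Iah1-KO (difference 0.13). Dkc1, which encodes dyskerin, the pseudouridine synthase that also stabilises Terc, read 6.19 and 6.23 (difference 0.03). Wrap53, whose product carries telomerase to Cajal bodies, read 6.17 and 6.01 (difference -0.16).

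The list of telomerase, Terc maturation and telomere-binding genes had 14 of 16 members measured, all with a mean above the filter. None of these 14 was past 1.5-fold in either direction. Their median was 0.00 (-0.0038), with 7 above 0 and 7 below. The largest differences were -0.43 for Tinf2 and -0.38 for Pot1b, which encode shelterin proteins of the chromosome end, then 0.29 for Tent4b, a poly(A) polymerase that tails Terc precursors, and -0.26 for the shelterin gene Terf2. Parn, the deadenylase that removes those tails, differed by 0.15.

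Among the box H/ACA guides, Snora62 was the brightest RNA with a large difference. It read 9.33 in Iah1-WT and 10.20 in Iah1-KO, a difference of 0.87 or 1.83-fold. Among the 5331 genes of the bright band, its rank from the highest difference was 2. Snora62 lies within Rpsa, which encodes a protein of the small ribosomal subunit. Rpsa itself read 7.22 in Iah1-WT and 7.21 in Iah1-KO (difference -0.0031). The small RNA's probe set thus differed between the arrays, while the gene value of its host was almost the same. The other 4 box H/ACA guides above the filter that were higher in Iah1-KO had smaller differences: 0.35 for Snora20 (6.08 in Iah1-WT and 6.43 in Iah1-KO), 0.34 for Snora30 (7.30 and 7.65), 0.15 for Snora44 (9.88 and 10.04) and 0.10 for Snora75 (4.93 and 5.03).

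The lower box H/ACA guides were led by Snora2b, at 4.78 in Iah1-WT and 3.98 in Iah1-KO. The RMA values differ by -0.80, but the Iah1-KO value lay below the filter. The Iah1-WT value was only 1.08-fold above that filter, so no fold is given. The next was Snora69, which did not reach 1.5-fold, at 7.66 in Iah1-WT and 7.23 in Iah1-KO (difference -0.43). Snora31 read 8.25 and 7.91 (difference -0.34), Snora23 10.29 and 9.96 (-0.32) and Snora34 10.38 and 10.12 (-0.27). Smaller still were Snora15 at -0.21, Snora68 at -0.19, Snora61 at -0.18 and Snora47 at -0.17. The paired RNAs Snora73a and Snora73b, forms of the U17 RNA that act in cutting the precursor of small-subunit ribosomal RNA, differed by -0.05 and -0.10. Of the 5 brightest guides of this class, Snora16a (11.05 in Iah1-WT and 10.97 in Iah1-KO) and Snora21 (9.99 and 9.96) differed by less than 0.1.

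**Figure D3:**
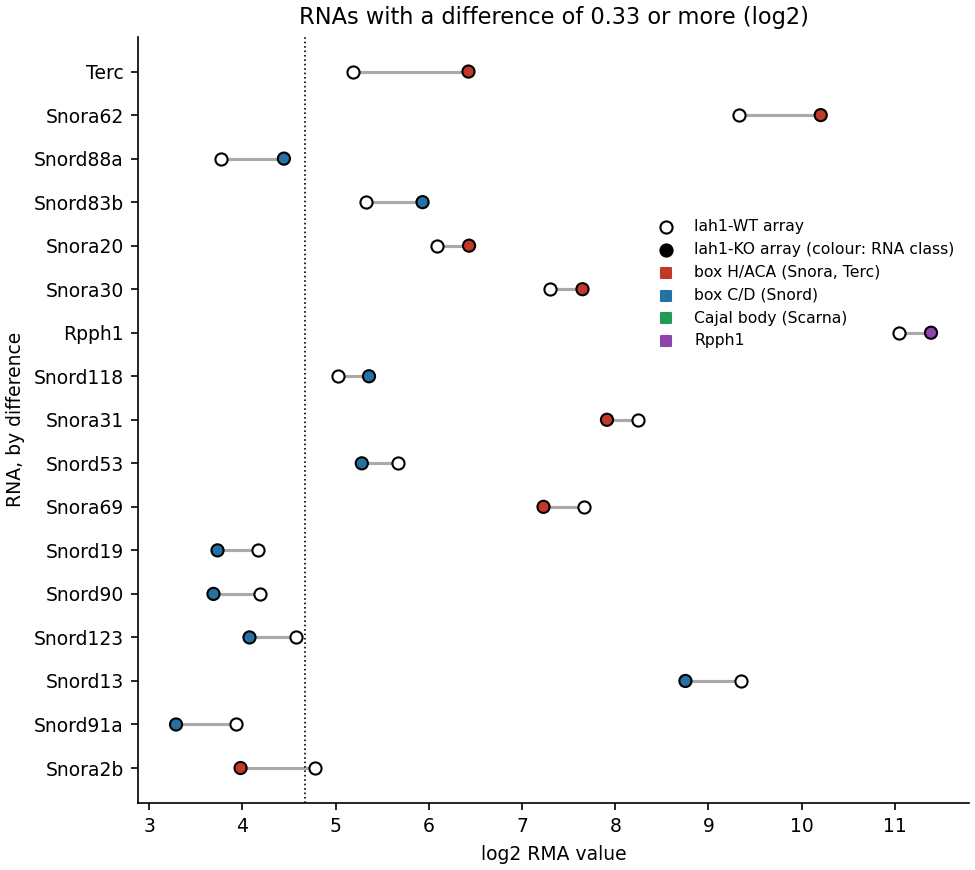
The log2 RMA signal (horizontal axis) of the 17 RNAs that differed by 0.33 or more, ordered by difference (vertical axis); open circles are the Iah1-WT array, filled circles the Iah1-KO array coloured by class, and the dotted line is the filter at 4.68. Terc goes from 5.19 to 6.43 and Snora62 from 9.33 to 10.20, both right of the filter, whereas 5 box C/D RNAs lie left of it in both arrays.

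Box C/D RNAs past 1.5-fold were 2 in each direction, and only Snord83b and Snord13 of them were above the filter. Snord13, the U13 RNA that guides acetylation of small-subunit ribosomal RNA, was the lower one. It read 9.35 in Iah1-WT and 8.75 in Iah1-KO, a difference of -0.60 or 1.51-fold. Snord83b was the higher one, at 5.33 in Iah1-WT and 5.93 in Iah1-KO (difference 0.60, or 1.52-fold). Both lie just past the threshold, by far less than 0.27, the spread between probe sets of a gene. After quantile normalization again or a loess fit of the difference on signal, Snord13 was at -0.58, just short of it. Snord88a (3.77 in Iah1-WT and 4.45 in Iah1-KO) and Snord91a (3.93 and 3.29) were near background in both arrays, so no fold is given.

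Several other box C/D RNAs are known for roles in cutting the ribosomal RNA precursor. Snord118, the U8 RNA needed for large-subunit ribosomal RNA, read 5.02 in Iah1-WT and 5.36 in Iah1-KO (difference 0.33), the closest below the fold on the higher side. Snord22, the U22 RNA of small-subunit processing, read 10.86 and 10.69 (difference -0.18). Rnu3a, a gene for the U3 RNA of the same pathway, is a box C/D RNA whose symbol lies outside the naming rule, and it read 7.48 and 6.90 (difference -0.58, just short of 1.5-fold). Of these processing RNAs, Snord118 was thus the higher one, Rnu3a and Snord22 were lower, and none of the 3 reached the fold.

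Some bright box C/D guides read nearly the same in both arrays. Snord104, the brightest, read 12.01 in both. Snord16a read 10.84 in Iah1-WT and 10.81 in Iah1-KO, and Snord99 10.81 and 10.83. Other guides with a mean signal above the filter ranged from -0.38 for Snord53 (5.67 and 5.28), -0.25 for Snord88c, -0.24 for Snord23 and -0.21 for Snord49a to 0.25 for Snord70, 0.24 for Snord66 and 0.23 for Snord72. Snord17 differed by -0.18, Snord52 by -0.16, Snord35b by 0.18 and Snord71 by 0.16. The closest below the fold on the lower side was Snord123 at -0.50, near background in both arrays.

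The differences did not follow signal in 1 direction. Of the 15 RNAs whose mean signal was below the filter, the 14 near background and Snora2b, 12 lay below 0, with a median of -0.30, whereas all genes below the filter had a median of 0.02. In the middle band 6 of 10 RNAs lay above 0, with a median of 0.16, beside -0.03 for all genes there. For the 55 RNAs in the bright band the median was -0.06, beside -0.02 for all genes there, and differences between bands were not tested. Among the dim RNAs were Snord90 (4.19 in Iah1-WT and 3.69 in Iah1-KO), Snord19 (4.17 and 3.73), Snord43 (4.36 and 4.04), Snora41 (4.19 and 3.89) and Snora78 (4.50 and 4.19). Snora35, which sits in the brain-expressed serotonin receptor gene Htr2c, was near background in both arrays (3.18 and 3.39), as was Htr2c (2.37 and 2.68). The brain-enriched imprinted Snord clusters, among them Snord115 and Snord116, have no probe set with a single symbol and were not analysed here.

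The Cajal body RNAs were nearly level. Scarna2, which guides marks on the U2 spliceosomal RNA, read 8.76 in Iah1-WT and 8.75 in Iah1-KO. Scarna17 read 9.43 and 9.47, and Scarna10, a guide for the U5 RNA, 7.88 and 7.95. Scarna6 had the largest difference, at 9.42 and 9.14 (-0.29). Scarna8 was near background, at 3.53 and 3.63. No member of this class reached 1.5-fold.

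Rpph1 was higher in the Iah1-KO array, at 11.05 in Iah1-WT and 11.39 in Iah1-KO, a difference of 0.34 or 1.26-fold that did not reach the threshold. The protein genes of RNase P and RNase MRP had a median of -0.03 over all 11 listed, and none was past 1.5-fold. The largest differences were 0.52 for Rpp25, which lay below the filter in both arrays, -0.39 for Rpp21, -0.25 for Rpp40 and -0.20 for Rpp14.

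Only 3 of the 80 RNAs had more than 1 probe set, so most values rest on a single one. The probe sets of Scarna17 gave -0.06 and 0.15, and those of Snora33 -0.11 and -0.11, although one of the latter read 5.37 and the other 11.82 in Iah1-WT. The probe sets of Snora19 held identical values on both arrays and count as 1 measurement.

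RNAs past 1.5-fold lay both inside and outside other genes. In the RefSeq annotation of GRCm38.p6, which matched all 80 gene identifiers, 74 of the RNAs lie within another gene and 6 do not. The 6 are Terc, Rpph1, Scarna2, Snord13, Snord118 and Snord89. Their differences were 1.24, 0.34, -0.01, -0.60, 0.33 and 0.12, so they went both ways, with a median size of 0.34 without regard to sign. For the 74 RNAs within other genes the median size was 0.16. Of the 7 RNAs past 1.5-fold, 5 lie within another gene, and Terc and Snord13 do not. The split was made after these values were known, and 6 RNAs are too few to set the groups apart.

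The difference of an RNA within another gene was only weakly related to that of the gene, its host. For 58 RNAs that lie within a single other gene with a value, the differences of RNA and host had Pearson's r of 0.10 and Spearman's rho of 0.13 across the pairs. The pairs share the 2 arrays and some share a host, so the coefficients only describe them. Pairing was by position, and neither strand nor introns were used. Differences of the 50 containing genes spread little, with a standard deviation of 0.23. With 1 array per genotype, the part of error in that spread is not known. The coefficients therefore cannot show how closely RNA and host are tied. Both had the same sign in 35 of the 58 pairs, and the median gap between them was 0.22. Where 2 or more RNAs lie in 1 gene (11 genes), the gap between the highest and lowest of them ran from 0.050 to 0.93. Within Rpl3, a large-subunit ribosomal protein gene at -0.10, Snord43 was at -0.32, near background, and Snord83b at 0.60. Within 2410002F23Rik at -0.06, Snord88c was at -0.25 and Snord88a at 0.68, the latter near background. Snord88c was itself below the filter in Iah1-KO, so both of these contrasts rest on at least 1 dim RNA.

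Gaps at other hosts were smaller. Snhg12, a non-coding host gene at -0.03, contains 4 of them: Snora61 at -0.18, Snora16a at -0.08, Snord99 at 0.02 and Snora44 at 0.15. The 3 box C/D RNAs within the non-coding gene 2410006H16Rik, Snord49a, Snord65 and Snord49b, lay between -0.21 and -0.06, with the gene at -0.25. Within Kansl2, at -0.33, Snora34 was at -0.27 and the dim Snora2b at -0.80. Snora73a and Snora73b stayed near 0 although their host Snhg3 was at -0.40. Nop58 encodes a core protein of box C/D particles and holds Snord11 and Snord70. The gene was at -0.26 and the RNAs at -0.04 and 0.25.

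**Figure D4:**
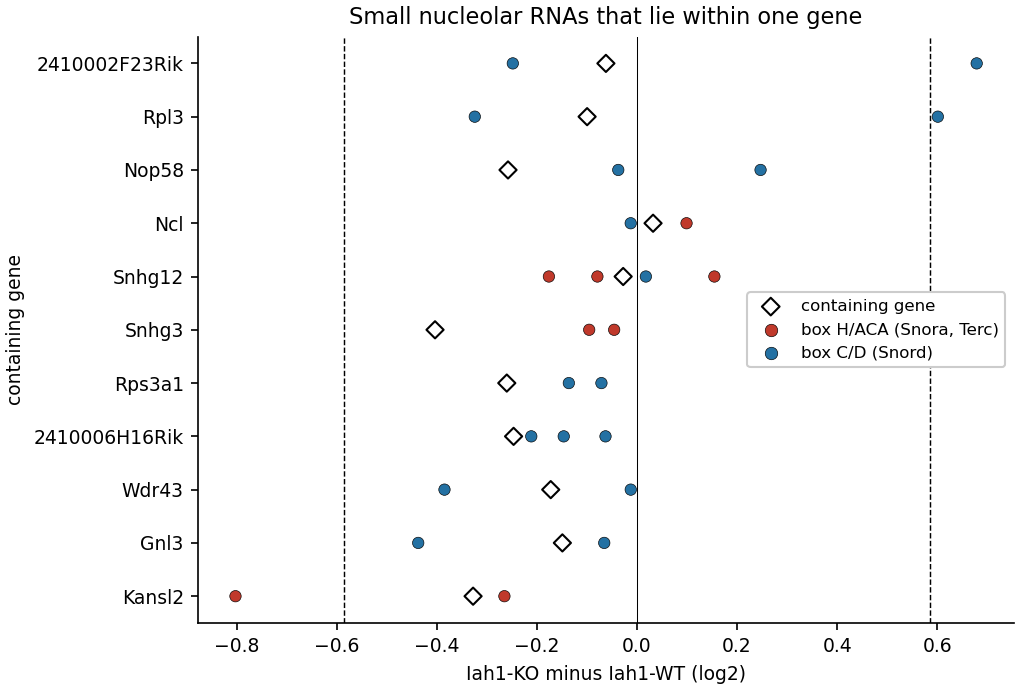
Differences between the Iah1-KO and Iah1-WT arrays (horizontal axis, log2) of small nucleolar RNAs grouped by the gene that contains them (vertical axis); filled circles are the RNAs coloured by class, open diamonds the containing gene, and dashed lines mark 1.5-fold. RNAs of Snhg3, Rps3a1 and Ncl lie close together, whereas those of Rpl3 and 2410002F23Rik lie on opposite sides of 0.

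The sequences of the RNAs themselves were not used here, but the starts of 50 of the containing genes are in the RefSeq promoter table. Host genes are known to begin often with a tract of pyrimidines, the mark of the terminal oligopyrimidine class to which ribosomal protein genes belong. The windows below show 4 hosts from 50 bases before to 50 bases after the annotated start, 5′ to 3′ on the transcribed strand: the host of Snora62, the 2 non-coding hosts with the most RNAs, and Snhg3, the host of the U17 RNAs, as one without the motif. Capitals mark the motif CTTTC, chosen after such windows had been seen, which 35 of the 50 hosts lack on this strand. It is marked anywhere in the window, so a marked stretch need not be the first bases of the transcript. In Rpsa it lies after the annotated start, and in 2410006H16Rik mostly before it. All windows are from GRCm38.p6. On the plus strand are Rpsa at chr9:120127716-120127815, Snhg12 at chr4:132308628-132308727 and 2410006H16Rik at chr11:62602827-62602926, and on the minus strand is Snhg3 at chr4:132353637-132353736.
Rpsa: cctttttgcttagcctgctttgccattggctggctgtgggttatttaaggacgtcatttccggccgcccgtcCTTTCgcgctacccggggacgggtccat
Snhg12: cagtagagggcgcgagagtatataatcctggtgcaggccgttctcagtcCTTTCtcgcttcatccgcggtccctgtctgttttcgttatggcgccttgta
2410006H16Rik: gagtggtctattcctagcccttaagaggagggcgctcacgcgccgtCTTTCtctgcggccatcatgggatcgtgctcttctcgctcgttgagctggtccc
Snhg3: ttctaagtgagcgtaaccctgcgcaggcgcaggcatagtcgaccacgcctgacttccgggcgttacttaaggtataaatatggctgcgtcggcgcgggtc

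In this window CTTTC was on the transcribed strand of 15 of the 50 hosts and of 14.6% of all 27025 genes in the table. On either strand it was found for 16 of the 50 hosts and 26.2% of all genes. A match describes these letters only. Rpsa and Snhg12 both hold it and had differences of -0.0031 and -0.03, while 2410006H16Rik, which also holds it, was at -0.25 and Snhg3, which does not, at -0.40.

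Genes of the protein partners were mostly level as well. The box H/ACA core and assembly list was measured for all 7 members, with a median of 0.02 and none past 1.5-fold. Its largest differences were -0.45 for Gar1 and -0.29 for Nhp2, core proteins of the particle, -0.26 for the assembly factor gene Shq1 and 0.19 for Nolc1. For box C/D, 10 of 12 listed symbols were measured, with a median of -0.03, and the fibrillarin gene Fbl had no probe set with a single symbol. Of these 10, none was higher and 1 lower at 1.5-fold: Rpap3, a co-chaperone gene for particle assembly, at 5.28 in Iah1-WT and 4.36 in Iah1-KO, the latter below the filter. Nop58 was at -0.26, Snu13 at 0.19 and Ruvbl1 at -0.17.

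The list drawn up for Cajal body proteins leaned lower, with a median of -0.14 over 8 of 9 measured, 7 of them below 0. Median and count include Usp1 at -0.12, which is not known as a Cajal body protein. The 1 gene past 1.5-fold was Gemin2, a partner of the SMN protein, at 4.73 in Iah1-WT and 3.86 in Iah1-KO, the latter below the filter. Ice1 was at -0.49, Uspl1 at 0.19, and Coil, the gene for the body's marker protein coilin, at -0.32 with both arrays below the filter. Genes of small RNA transcription, capping and trimming had a median of -0.07 over 18 of 19, with none past 1.5-fold. They ranged from -0.36 for the cap methyltransferase gene Rnmt to 0.38 for the exosome nuclease gene Exosc10, 0.43 for Ints11 and 0.44 for Polr3g, a subunit of RNA polymerase III.

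The list of known host genes had a median of 0.03 over 36 of 45 measured, with none higher and 1 lower at 1.5-fold. That gene was Snhg15, at 4.88 in Iah1-WT and 4.24 in Iah1-KO, the latter below the filter. Other non-coding hosts went both ways. Snhg9 was at -0.54 and Snhg3 at -0.40, while Snhg4 was at 0.38, above the filter in both arrays. Meg3 was at 0.49, below the filter in both arrays. In these 7 partner and host lists no gene was higher at 1.5-fold and Rpap3, Gemin2 and Snhg15 were lower. Only Rpap3 of these had a mean signal at the filter. Over all genes the shares were 2.58% higher and 2.60% lower. Most list genes had a mean signal at the filter, and over all such genes the shares were 0.911% and 1.90%. Some genes are in more than 1 list, and the counts do not set the lists apart.

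**Figure D5:**
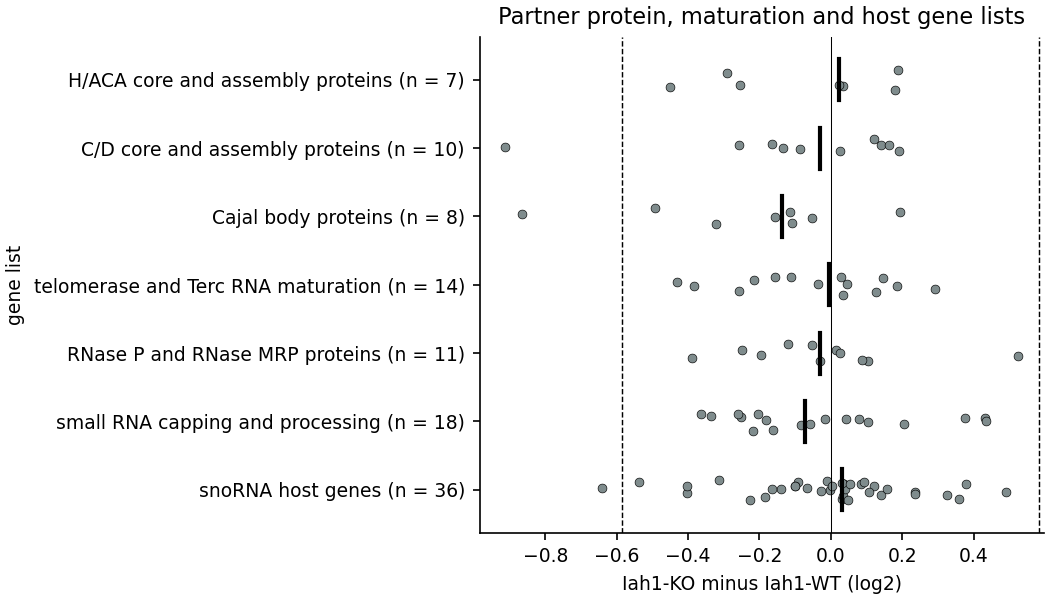
Differences between the Iah1-KO and Iah1-WT arrays (horizontal axis, log2) for the genes of each partner, maturation and host list (vertical axis); points are genes, thick bars are list medians and dashed lines mark 1.5-fold. The medians lie between -0.14 for Cajal body proteins and 0.03 for host genes, and the points left of the lower threshold are Rpap3, Gemin2 and Snhg15.

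The 472 microRNA genes (Mir) on the array are the other large group of short RNA genes. They were dimmer, with 82.4% near background against 17.5% of the small nucleolar and related RNAs. Their median difference was 0.02, and 6.78% were higher and 4.87% lower at 1.5-fold. Among the 24 of them in the bright band the median was 0.18, beside -0.06 for the 55 RNAs described here, and the difference between these medians was not tested.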

How the data were processed

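The deposited table holds 1 log2 value per probe set for each of 2 arrays. Per the submitters' processing notes, the authors made these log2 values with RMA in Affymetrix Expression Console 1.3.0. RMA subtracts background, equalises the arrays' probe distributions and summarises probes, which shrinks differences of dim probe sets and removes any general shift. The sources used here name no genome build. Of 41345 probe sets, 23521 had 1 gene symbol, 1814 several and 16010 none in the platform annotation, and only the first were named. A gene's value was the mean over its probe sets, and the difference was Iah1-KO minus Iah1-WT.

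With 1 array per genotype no test was made. RNAs were counted at 1.5-fold, beside the same share over all genes. Named RNAs were Terc, Rpph1, all Scarna, and, of Snora and Snord above the filter by mean signal, the 8 largest differences each way, the 5 brightest and those nearest the threshold. Of each list the 4 largest differences were named. Others were named after their values were seen. The values of 1 box C/D RNA covered by this rule are not reported here. Members and lists were chosen with earlier results of these data known. Array number limits the precision. The code for counting and normalization was checked on simulated data, which gives no measure of the arrays' error (Python 3.11.15, pandas 2.3.3, statsmodels 0.14.6).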

Additional observations from a re-analysis of the deposited data

Results flagged for a closer look

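Probe sets that name several genes, at least 1 of them from these RNA families, were left out of every comparison above. There were 48, of which 27 reached the filter on the higher array. Of the 48, 2 were higher in Iah1-KO at 1.5-fold than in the Iah1-WT control array, and neither had a mean signal at the filter. Another 1 was lower, and its mean signal was above the filter. Over all genes with a single symbol the shares were 2.58% higher and 2.60% lower, and 4.12% and 3.24% for those below the filter. The counts are too small to set these probe sets apart. The median difference of the 48 was -0.12, in a range from -0.85 to 0.94.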

How the results depend on the processing

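No paired analysis was possible because each genotype has 1 array. Subtracting the median difference of all genes, quantile normalization again, a loess fit (span 0.4) and the brightest probe set kept the direction of the 3 class medians and of Terc (1.24 to 1.27) and Rpph1 (0.33 to 0.34), and kept the counts within 1.5 times. Snord13 was at -0.60, and at -0.58 under quantile normalization and loess, just under 1.5-fold. The box H/ACA mean was -0.035 in place of the median of -0.10. With a mean signal at the filter, 1 RNA was lower at 1.5-fold in place of 3, and at the 75th percentile 1 was higher and 1 lower. At 2-fold 1 was higher (Terc) and 0 were lower, with no test behind these counts. With that percentile as filter, 24 RNAs were near background in place of 14. Fewer RNAs enter under stricter filters. Without Terc, an alternative added after seeing the data, the box H/ACA median was -0.10. Rmrp could not be recomputed, having no value.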
